A study of Arabidopsis thaliana with 18 samples.

Results

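Abscisic acid (ABA) synthesis and catabolism were followed here through 10 Arabidopsis thaliana genes, named by locus identifier: ABA1 (AT5G67030), NCED3 (AT3G14440), NCED5 (AT1G30100), ABA2 (AT1G52340), ABA3 (AT1G16540), AAO3 (AT2G27150), CYP707A1 (AT4G19230), CYP707A2 (AT2G29090), CYP707A3 (AT5G45340) and BG1 (AT1G52400, also called BGLU18). They are 10 of the 32744 genes counted in each library. All 10 were found by identifier, and 9 had enough counts to be tested, NCED5 being the exception.

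Rosette RNA came from 6 groups of 3 libraries each: wild type (WT) and the era1 mutant, both grown in potting soil at 10, 2 or 0 mM nitrate and taken at flower bud emergence. The series title concerns nitrogen starvation and protein farnesylation, the attachment of a farnesyl lipid to proteins, for which ERA1 supplies the catalytic beta subunit. The mutant is labelled as a T-DNA insertion knock-out, but the locus printed beside it, AT5G66470, is not ERA1 (AT5G40280). ERA1 itself stood at 9.26 ± 0.453, 11.1 ± 0.590 and 9.50 ± 0.758 CPM in WT at 10, 2 and 0 mM, and at 1.39 ± 0.295, 2.21 ± 0.545 and 2.29 ± 0.407 CPM in era1, so transcript tags remained in the mutant. Levels are in CPM, the counts of a gene relative to the scaled library total, and carry the SD over n = 3 libraries of a group. Tags were taken near the transcript end, so CPM compares genes by transcripts and not by length.

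ABA is made from carotenoids. ABA1, a zeaxanthin epoxidase in the plastid, forms the epoxidised xanthophylls that the 9-cis-epoxycarotenoid dioxygenases (NCED3 and NCED5 here) cleave to xanthoxin, the committed step. ABA2, a cytosolic short-chain dehydrogenase, turns xanthoxin into abscisic aldehyde, and the aldehyde oxidase AAO3, whose molybdenum cofactor is sulfurated by ABA3, makes ABA. The CYP707A cytochromes P450 hydroxylate ABA and start its breakdown, while BG1, a beta-glucosidase of the endoplasmic reticulum, releases ABA from its stored glucose ester. Mutants of ERA1 are known for an enhanced response to ABA in seeds and guard cells.

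The libraries held 4748044 to 6306900 gene counts, so 1 count was worth 0.158 to 0.218 CPM. The 2 mM libraries stood apart from all others on the leading principal component, which carried 35.5% of the variance. Core clock genes differed strongly in those libraries. LHY, a morning-expressed clock repressor, averaged 477, 29.4 and 740 CPM in WT at 10, 2 and 0 mM, and 432, 35.9 and 723 CPM in era1. CCA1, its partner, averaged 102, 15.4 and 245 CPM in WT and 97.8, 14.2 and 278 CPM in era1. The evening gene TOC1 averaged 7.82, 25.7 and 4.83 CPM in WT and 5.41, 24.0 and 5.53 CPM in era1. PRR5, an afternoon repressor, averaged 12.9 CPM in WT at 2 mM and 7.21 CPM in era1, and at most 0.0694 CPM in the other groups. Reads without a unique alignment took 2.15% and 2.52% of records at 10 mM in WT and era1, and 4.72% to 4.97% in the other 4 groups. The part of harvest time or of these reads in the nitrate results was not tested. Rosette leaf markers, summed, lay between 6986 and 14785 CPM, lowest in era1 at 0 mM. Summed floral markers stayed between 1.40 and 4.43 CPM, guard cell markers between 49.4 and 72.5 CPM and vascular markers between 364 and 467 CPM by group mean. In era1 without nitrate the xylem markers XCP1 and XCP2 averaged 4.79 and 10.3 CPM, in place of 23.2 and 31.5 CPM in WT. They were the 2 lower of 5 tested vascular markers, with 0 higher, beside 24.6% of all genes lower. At 2 mM the same 2 of 5 were lower (11.1% of all genes), and at 10 mM 0 were (14.3%). Summed root markers, mostly AGP31, were at 126 CPM in era1 without nitrate and at 185 to 305 CPM in the other groups. Without nitrate 3 of 4 tested root markers were lower than in WT, where 24.6% of all genes were lower. With 10 and 2 mM nitrate 0 and 1 of these 4 were lower, beside 14.3% and 11.1% of all genes. The root markers MRN1 and THAS1 each averaged at most 0.173 CPM in any group, with at most 1 count in any library. Their part in the results was not tested. Fewer cells of a type and less RNA per cell cannot be told apart in whole rosettes.

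The spread of levels over the 6 groups differed between members. The ratio of the highest to the lowest group mean was 25.3 for CYP707A1, 5.90 for CYP707A3, 2.90 for CYP707A2 and 2.60 for BG1. Among the synthesis genes it was 2.49 for ABA1, 1.69 for NCED3, 1.52 for ABA2, 1.502 for ABA3 and 1.21 for AAO3. NCED5 had no count in 2 groups, so it has only the values given below, and these ratios carry no test.

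In WT the members called at 0 against 10 mM were all higher, while those called at 2 against 10 mM went both ways. At 0 against 10 mM in WT, 5 of 9 tested members were higher and 0 lower at a false discovery rate (FDR) under 0.05 in edgeR. Of all 18358 tested genes 53.6% passed, 26.9% higher and 26.7% lower. Those 5 were ABA1, ABA2, CYP707A1, CYP707A3 and BG1. The median log2 fold change was 0.53 over the members and 0.01 over all genes. At 2 against 10 mM, 2 members were higher (CYP707A1 and BG1) and 1 was lower (ABA1), beside 57.1% of all genes called (28.8% higher, 28.3% lower). At 0 against 2 mM, 3 were higher (ABA1, ABA2, CYP707A3) and 1 lower (NCED3), beside 42.4% of all genes (20.3% higher, 22.1% lower).

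In era1 the nitrate contrasts called 5 of 9 members at 0 against 10 mM (4 higher, 1 lower), beside 55.5% of all genes (27.5% higher, 28.0% lower). ABA1, CYP707A1, CYP707A2 and CYP707A3 were higher and BG1 was lower. At 2 against 10 mM, CYP707A1 and CYP707A3 were higher and ABA1 and ABA2 lower, beside 52.0% of all genes (25.5% higher, 26.5% lower). At 0 against 2 mM, 7 members passed, 4 higher (ABA1, ABA2, ABA3, CYP707A2) and 3 lower (NCED3, CYP707A3, BG1), beside 49.7% of all genes (23.7% higher, 26.0% lower). DESeq2 called 4 in place of 7 there.

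**Figure D1:**
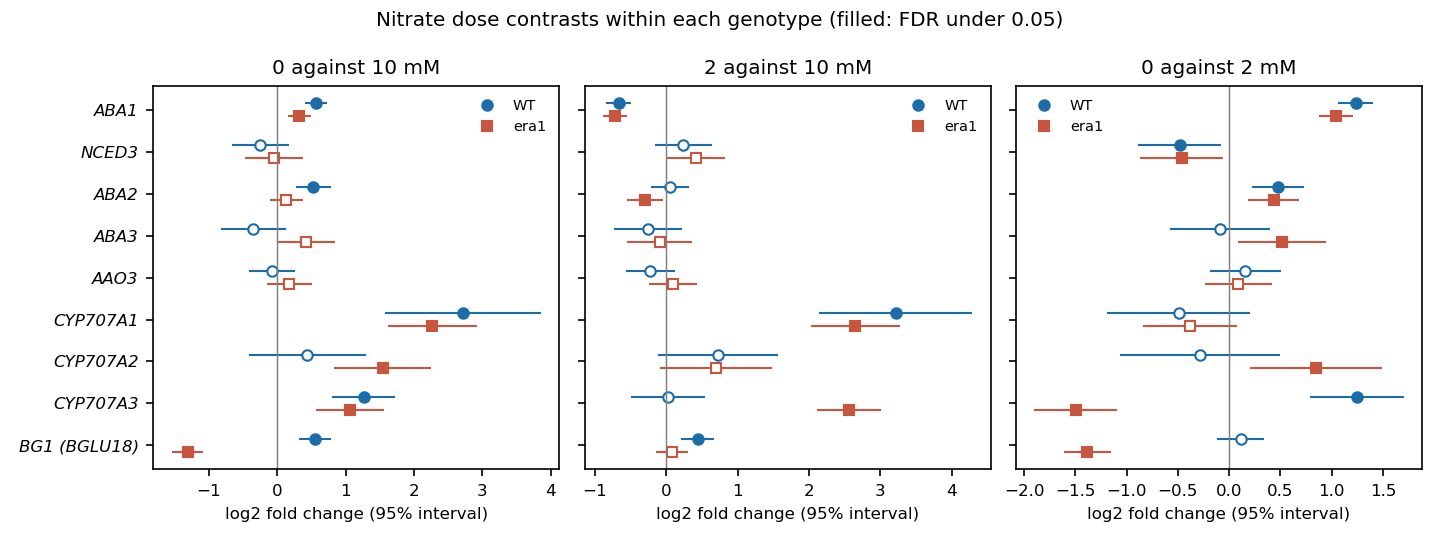
Log2 fold change (x axis) of the 9 tested members between nitrate doses, with WT as circles, era1 as squares and 95% intervals as bars; filled symbols passed an FDR of 0.05. CYP707A1 lies above 2 at 0 and 2 against 10 mM in both genotypes, while BG1 lies on opposite sides of 0 in WT and era1 at 0 against 10 mM.

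Among the synthesis genes, ABA1 gave the most precise pattern. Its levels in the 3 WT libraries were 216, 201 and 211 CPM at 10 mM, 139, 119 and 138 CPM at 2 mM, and 311, 332 and 285 CPM at 0 mM. In era1 they were 203, 197 and 213 CPM at 10 mM, 129, 116 and 128 CPM at 2 mM, and 244, 254 and 271 CPM at 0 mM. In both genotypes the 3 doses did not overlap, with 2 mM lowest and 0 mM highest, and the order followed no steady trend with nitrate. ABA1 rose at 0 against 10 mM in WT by a log2 fold change of 0.57 ± 0.08 (SE, FDR = 9.08e-07) and in era1 by 0.33 ± 0.08 (FDR = 7.13e-04). At 2 against 10 mM it fell by 0.67 ± 0.08 in WT (FDR = 8.43e-08) and by 0.72 ± 0.08 in era1 (FDR = 2.44e-08). The morning clock genes above shared this low at 2 mM and high at 0 mM.

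The mutant differed from WT in ABA1 without nitrate. There era1 was lower by a log2 fold change of -0.27 ± 0.07 (FDR = 0.00384), and its highest library, 271 CPM, lay below the lowest WT library, 285 CPM. At 10 mM the difference was -0.03 (95% interval -0.20 to 0.13) and at 2 mM -0.08 (-0.25 to 0.09), neither called. The interaction of genotype with 0 against 10 mM was -0.24 ± 0.11 (FDR = 0.0829), so a different response did not pass with all libraries. Without the third WT library at 0 mM it was -0.30 (FDR = 0.0353). Averaged over doses, ABA1 was lower in era1 with any single library left out, from -0.15 to -0.11 on the log2 scale (FDR 0.00687 to 0.0492).

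NCED3, the dioxygenase that in Arabidopsis leaves answers drought, had low levels and small differences. The WT libraries held 17.8, 14.6 and 14.4 CPM at 10 mM, 18.1, 18.1 and 19.0 CPM at 2 mM, and 9.26, 11.6 and 18.5 CPM at 0 mM. In era1 they held 11.0, 11.3 and 11.4 CPM at 10 mM, 15.03, 11.8 and 18.1 CPM at 2 mM, and 9.99, 10.3 and 12.3 CPM at 0 mM. The group means were highest at 2 mM in both genotypes, and the third WT library without nitrate lay near the 2 mM level, apart from the other two. In era1 the change at 2 against 10 mM was 0.42 (log2, FDR = 0.0634) and not called. Its FDR was 0.0270 with no low-count filter and 0.0304 with only the groups compared. Without the second era1 library at 2 mM it was 0.56 (FDR = 0.02). In WT it ran from 0.18 to 0.34 with single libraries left out (FDR 0.176 to 0.488).

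NCED3 fell at 0 against 2 mM by 0.48 ± 0.19 on the log2 scale in WT (FDR = 0.0379) and by 0.46 ± 0.19 in era1 (FDR = 0.0413). DESeq2 gave adjusted p-values of 0.0728 and 0.0635, and the WT call was also lost with at least 1 CPM in 3 libraries as the filter (0.0501) and with only the groups compared (0.0640). The WT call was lost when any of 5 libraries was left out singly, and the change ran from -0.82, without the third WT library at 0 mM, to -0.26, without the first. The era1 call was lost when any of 4 was left out, and the change ran from -0.61, without the second era1 library at 2 mM, to -0.30, without the third. At 0 against 10 mM in WT the change was -0.25 (FDR = 0.284), and without the third WT library at 0 mM it was -0.57 (FDR = 0.0110). Averaged over doses, era1 was lower in NCED3 by a log2 fold change of -0.34 ± 0.11 (FDR = 0.0110). This average called 4 of 9 members, 2 in each direction, beside 47.1% of all genes (23.8% higher, 23.3% lower). At single doses it was not called: -0.47 ± 0.19 at 10 mM (FDR = 0.0653), -0.29 with 2 mM and -0.27 without nitrate. With single libraries left out it ran from -0.45 to -0.15 at 2 mM, lowest without the third and highest without the second era1 library. At 0 mM it ran from -0.48 (FDR = 0.0445), without the first WT library, to 0.06, without the third. At 10 mM the era1 libraries all lay below the WT libraries, and the FDR was 0.0220 with no low-count filter and 0.0190 with only the groups compared.

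NCED5, a second dioxygenase, was at the limit of detection with 26 counts over 18 libraries. No library at 10 mM held a count in either genotype, which allows up to 0.209 CPM over the WT group and 0.174 CPM over the era1 group at 3 counts. At 2 mM the groups held 7 counts in WT and 5 in era1, and at 0 mM 9 and 5. All 6 WT libraries at 2 and 0 mM had at least 1 count. Against the 3-count limit over the group, the NCED5 level in WT was 2.73-fold higher at 0 mM and 2.38-fold higher at 2 mM. These ratios leave out the counting error of the 9 and 7 counts (exact 95% intervals 0.260 to 1.08 and 0.200 to 1.02 CPM). The interval at 0 mM lies above the 0.209 CPM limit at 10 mM. Its lower end, 0.260 CPM, barely clears the matching exact upper bound of WT at 10 mM, 0.257 CPM. The interval at 2 mM reaches below the 0.209 CPM limit, so it did not resolve a rise at 2 mM. In era1 the 5 counts at each dose gave 0.274 CPM at 0 mM (0.0889 to 0.639) and 0.287 CPM at 2 mM (0.0933 to 0.671), which reach below the 3-count limit at 10 mM, so a rise was not resolved at this depth. The gene failed the low-count filter. Without a filter edgeR gave an FDR of 0.0131 and 0.0234 for the 2 WT contrasts, and 0.0655 and 0.0663 for those in era1.

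ABA2 rose in WT without nitrate. The WT libraries held 24.3, 26.1 and 29.6 CPM at 10 mM, 24.6, 29.0 and 29.3 CPM at 2 mM, and 37.6, 40.0 and 37.9 CPM at 0 mM. The 0 mM libraries were above all others of WT, by 0.53 ± 0.12 on the log2 scale against 10 mM (FDR = 5.28e-04). The era1 libraries held 32.9, 31.0 and 28.9 CPM at 10 mM, 26.8, 27.1 and 21.8 CPM at 2 mM, and 29.4, 39.2 and 33.3 CPM at 0 mM. In era1 the 10 and 0 mM libraries overlapped, with a log2 fold change of 0.14 (95% interval -0.11 to 0.38). ABA2 fell there at 2 against 10 mM by 0.30 ± 0.12 (FDR = 0.0356), a call lost in DESeq2 (adjusted p = 0.0941), under both other low-count filters (0.0517 and 0.0543), with only the groups compared (0.0597) and when any of 3 libraries was left out singly. Without the third era1 library at 2 mM it was -0.20 (FDR = 0.208). With all libraries in the fit no contrast of era1 with WT called ABA2. At 0 mM the difference was -0.18 (FDR = 0.192), and without the second era1 library it was -0.29 (FDR = 0.0477). The interaction of genotype with 0 against 10 mM was -0.39 (FDR = 0.0634) and not called. It was -0.50 (FDR = 0.019) without that second era1 library, and -0.47 (FDR = 0.0403) without the third WT library at 10 mM. Annotated genes overlapping ABA2 lie on the opposite strand and held 0 to 3 counts in any library.

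ABA3 and AAO3 act together in the last step, with ratios of the highest to the lowest group mean of 1.502 and 1.21. ABA3 in WT held 7.77, 4.497 and 6.04 CPM at 10 mM, 5.22, 5.14 and 4.96 CPM at 2 mM, and 5.10, 4.90 and 4.44 CPM at 0 mM. In era1 it held 6.58, 5.47 and 4.11 CPM at 10 mM, 4.83, 4.82 and 5.48 CPM at 2 mM, and 7.18, 7.07 and 7.42 CPM at 0 mM. Without nitrate every era1 library was above every WT library. There ABA3 was higher in era1 by 0.59 ± 0.20 (log2, FDR = 0.0187), where DESeq2 gave an adjusted p of 0.0954 and leaving out the third WT library gave 0.0674. ABA3 also rose in era1 at 0 against 2 mM by 0.51 ± 0.20 (FDR = 0.0323), a call lost in DESeq2 (adjusted p = 0.130) and when any of 5 libraries was left out singly.

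AAO3 passed in no contrast with all libraries in the fit. Its levels ran from 10.9 to 16.8 CPM over the 18 libraries, and its group means from 13.0 ± 2.95 CPM in era1 at 10 mM to 15.7 ± 0.871 CPM in WT at 10 mM. That difference, the largest for AAO3 in the genotype contrasts, was -0.27 on the log2 scale (95% interval -0.61 to 0.07). Without the second era1 library at 10 mM, which held 16.4 CPM beside 11.8 and 10.9, it was -0.47 (FDR = 0.0285), and the change in era1 at 0 against 10 mM was 0.38 (FDR = 0.0468) in place of 0.18.

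**Figure D2:**
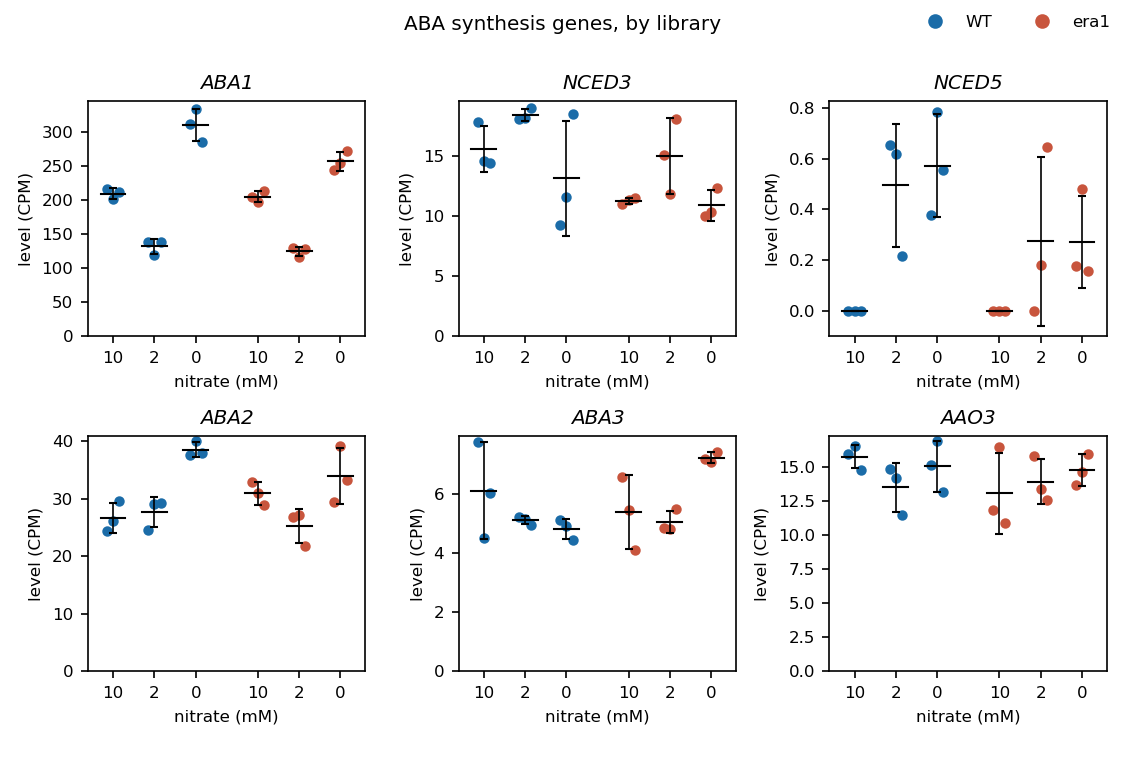
Levels in CPM (y axis, linear) of the 6 synthesis genes in each library by nitrate dose (x axis), WT in blue and era1 in red, with mean and SD as bars. ABA1 is lowest at 2 mM and highest at 0 mM in both genotypes, NCED5 has no count at 10 mM, and AAO3 overlaps between all groups.

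The breakdown gene CYP707A1 was higher at 2 and 0 mM than at 10 mM in both genotypes. The WT libraries held 0.204, 0.214 and 0.416 CPM at 10 mM, 3.70, 2.06 and 2.59 CPM at 2 mM, and 1.89, 1.96 and 2.03 CPM at 0 mM. In era1 they held 0.675, 1.41 and 1.25 CPM at 10 mM, 6.26, 7.14 and 7.74 CPM at 2 mM, and 4.21, 6.26 and 5.68 CPM at 0 mM. In both genotypes the 10 mM libraries lay below all others, and at each dose every era1 library lay above every WT library.

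These levels rest on few counts at 10 mM, with 4 in the WT group and 19 in the era1 group. The ratio of summed counts per library size in WT was 9.94 at 2 against 10 mM (exact 95% interval 3.58 to 38.3) and 7.04 at 0 against 10 mM (2.49 to 27.5), intervals that cover counting error only. In edgeR the log2 fold changes in WT were 3.21 ± 0.49 (FDR = 5.01e-06) and 2.72 ± 0.52 (FDR = 1.07e-04). In era1 they were 2.65 ± 0.29 (FDR = 2.56e-08) and 2.27 ± 0.30 (FDR = 5.82e-07). Between 0 and 2 mM CYP707A1 was called in neither genotype, with a difference of -0.49 in WT (95% interval -1.19 to 0.20) and -0.38 in era1 (-0.84 to 0.08).

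CYP707A1 was called higher in era1 than in WT at every dose with all libraries in the fit. At 10 mM era1 was higher by 1.90 ± 0.58 on the log2 scale (FDR = 0.0197), in a contrast with 2 of 9 members higher and 0 lower, beside 29.7% of all genes (15.4% higher, 14.3% lower). At 2 mM it was higher by 1.34 ± 0.25 (FDR = 2.82e-04), with 3 members higher and 0 lower, beside 22.0% of all genes (10.9% higher, 11.1% lower). Without nitrate it was higher by 1.45 ± 0.27 (FDR = 8.69e-05), with 3 members higher and 3 lower, beside 49.1% of all genes (24.5% higher, 24.6% lower). Averaged over doses the difference was 1.57 ± 0.23, or 2.96-fold (FDR = 3.04e-06). At 10 mM the call was lost in DESeq2 (adjusted p = 0.0687) and when any of 4 libraries was left out singly, and with only the groups compared the gene failed the low-count filter. The interactions of genotype with nitrate were not called for CYP707A1, and their intervals were wide, from -1.80 to 0.90 for 0 against 10 mM.

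CYP707A2, known for lowering ABA in imbibed Arabidopsis seeds, was called with all libraries only in contrasts that hold era1 without nitrate. In WT the libraries ran from 2.04 to 3.64 CPM at 10 mM, 3.29 to 5.66 CPM at 2 mM and 2.59 to 4.53 CPM at 0 mM, overlapping throughout. In era1 they held 1.86, 3.35 and 2.68 CPM at 10 mM, 4.83, 4.82 and 3.22 CPM at 2 mM, and 4.21, 11.6 and 7.10 CPM at 0 mM. The second era1 library without nitrate was the highest of all 18. CYP707A2 rose in era1 at 0 against 10 mM by 1.54 ± 0.32 (log2, FDR = 2.76e-04). Against WT at 0 mM it was higher by 1.09 ± 0.31 (FDR = 0.00546), with overlapping libraries. Without that second library the difference from WT was 0.66 (FDR = 0.0834). The rise in era1 at 0 against 2 mM, 0.85 ± 0.30 (FDR = 0.0199), was 0.42 (FDR = 0.262) without it. That call was also lost in DESeq2 (adjusted p = 0.051) and without the third era1 library at 2 mM (FDR = 0.101). The interactions of genotype with 0 against 10 mM (1.10, FDR = 0.105) and 0 against 2 mM (1.13, FDR = 0.0824) were not called. With no low-count filter their FDR was 0.0444 and 0.0299. At 2 against 10 mM the changes were 0.73 in WT (FDR = 0.110) and 0.70 in era1 (FDR = 0.109). Fits of only the groups compared gave an FDR of 0.046 and 0.043.

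CYP707A3 carried most of the family's transcripts and had a different dose pattern in each genotype. In WT it held 19.2, 18.2 and 20.6 CPM at 10 mM, 14.6, 19.3 and 25.0 CPM at 2 mM, and 35.1, 46.4 and 57.9 CPM at 0 mM. In era1 it held 13.8, 10.9 and 13.8 CPM at 10 mM, 72.5, 68.7 and 85.9 CPM at 2 mM, and 21.0, 20.2 and 38.8 CPM at 0 mM. WT was high only without nitrate, and era1 was highest at 2 mM, above every other library of the study.

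In WT CYP707A3 rose at 0 against 10 mM by 1.26 ± 0.21 on the log2 scale (FDR = 1.78e-05), and at 2 against 10 mM the change was 0.02 (95% interval -0.50 to 0.54). In era1 it rose at 2 against 10 mM by 2.56 ± 0.21, or 5.89-fold (FDR = 1.51e-10), and fell from 2 to 0 mM to 0.354 of the 2 mM level (log2 SE 0.18, FDR = 1.72e-07). The interaction of genotype with 2 against 10 mM was 2.54 ± 0.32 (FDR = 4.78e-06), in a contrast that called 1 of 9 members, higher, and 15.8% of all genes (7.70% higher, 8.09% lower). The interaction with 0 against 2 mM, added after these values had been seen, was -2.74 ± 0.28 (FDR = 1.01e-07), in a contrast with 2 members lower and 23.1% of all genes called (9.58% higher, 13.5% lower).

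Against WT, CYP707A3 in era1 was therefore higher at 2 mM and lower at 0 mM. The log2 difference was 1.95 ± 0.20 at 2 mM (FDR = 1.03e-07) and -0.79 ± 0.19 at 0 mM (FDR = 0.00141), the latter with overlapping libraries. At 10 mM it was -0.59 ± 0.25 (FDR = 0.0748), with all era1 libraries below all WT libraries and an FDR of 0.00211 with no low-count filter and 0.00307 with only the groups compared. The average over doses, 0.19 (FDR = 0.230), mixed these directions and was -0.69 (FDR = 9.33e-04) without the 2 mM libraries. From high to low, the ranges of WT at 0 mM and era1 at 0 mM overlapped, as did those of era1 at 0 mM with WT at 2 mM and at 10 mM. The era1 libraries at 10 mM lay below all others.

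The summed transcripts of CYP707A1, CYP707A2 and CYP707A3 stood at 22.3 ± 0.951, 26.8 ± 4.40 and 52.0 ± 10.5 CPM in WT at 10, 2 and 0 mM. CYP707A4, given below, is not part of this sum. In era1 the sum was 16.6 ± 1.01, 87.1 ± 8.66 and 39.7 ± 11.2 CPM. CYP707A3 made up 66.6% to 88.7% of it by group mean, so the sum followed that gene. The share of CYP707A1 was lowest in WT at 10 mM, 1.24 ± 0.476%, and highest in era1 at 0 mM, 13.9 ± 2.74%.

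**Figure D3:**
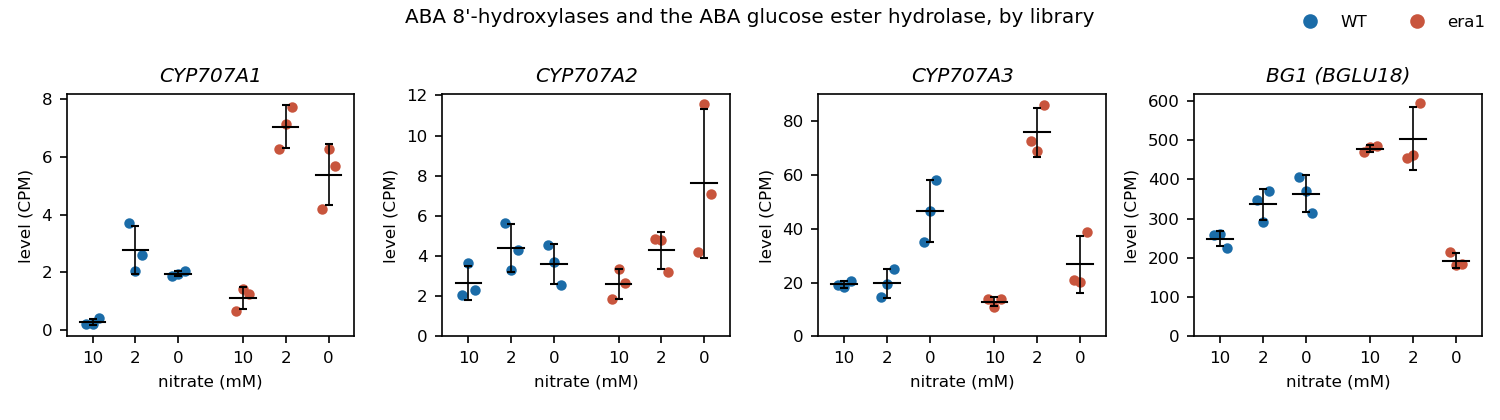
Levels in CPM (y axis, linear) of CYP707A1, CYP707A2, CYP707A3 and BG1 in each library by nitrate dose (x axis), WT in blue and era1 in red, with mean and SD as bars. CYP707A3 peaks at 0 mM in WT and at 2 mM in era1, and BG1 in era1 is above WT at 10 and 2 mM and below it at 0 mM.

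BG1, the enzyme that frees ABA from its glucose ester, had the highest mean of the members over the 18 libraries, 354 CPM, though in era1 at 0 mM ABA1 was above it (256 and 193 CPM). The WT libraries held 257, 261 and 226 CPM at 10 mM, 347, 292 and 370 CPM at 2 mM, and 406, 371 and 313 CPM at 0 mM. In era1 they held 469, 482 and 484 CPM at 10 mM, 453, 462 and 595 CPM at 2 mM, and 214, 182 and 184 CPM at 0 mM. The WT group means were higher at lower nitrate, while in era1 the 0 mM libraries were the lowest of all 18 and the 10 and 2 mM libraries the highest.

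In WT BG1 rose by 0.55 ± 0.11 on the log2 scale at 0 against 10 mM (FDR = 1.10e-04) and by 0.44 ± 0.11 at 2 against 10 mM (FDR = 0.00109). In era1 it fell by 1.31 ± 0.11 at 0 against 10 mM, to 0.404 of the 10 mM level (FDR = 1.88e-10), and at 2 against 10 mM the change was 0.07 (95% interval -0.15 to 0.30). Against WT it was higher in era1 by 0.95 ± 0.11 at 10 mM (FDR = 2.60e-07) and by 0.58 ± 0.10 at 2 mM (FDR = 1.79e-04). Without nitrate it was lower, at -0.91 ± 0.11 (FDR = 1.17e-07). The groups did not overlap at any dose.

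The interaction of genotype with 0 against 10 mM was -1.86 ± 0.15 for BG1 (FDR = 1.51e-09), in a contrast that called 2 of 9 members (ABA3 higher, BG1 lower) and 34.9% of all genes (15.6% higher, 19.3% lower). It was -1.49 ± 0.15 for 0 against 2 mM (FDR = 7.60e-08), and -0.36 ± 0.15 for 2 against 10 mM (FDR = 0.0986). The latter, not called, passed with no low-count filter (-0.33, FDR = 0.0424). It also passed without the second WT library at 2 mM (-0.45, FDR = 0.0414) and without the third era1 library at 2 mM (-0.50, FDR = 0.0184). The average over doses, 0.21 ± 0.06 (FDR = 0.00694), was 0.01 (FDR = 0.871) without the 2 mM libraries. Of 5 tested rosette leaf markers, 5 were lower and 0 higher in era1 without nitrate, where 24.6% of all genes were lower, with sums of 6544 to 7401 CPM in era1 and 12561 to 13781 CPM in WT. With 10 and 2 mM nitrate, where BG1 was higher in era1, 3 and 4 of the 5 were lower and 0 higher, beside 14.3% and 11.1% of all genes lower. The part of leaf cell content in the BG1 result was not tested.

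**Figure D4:**
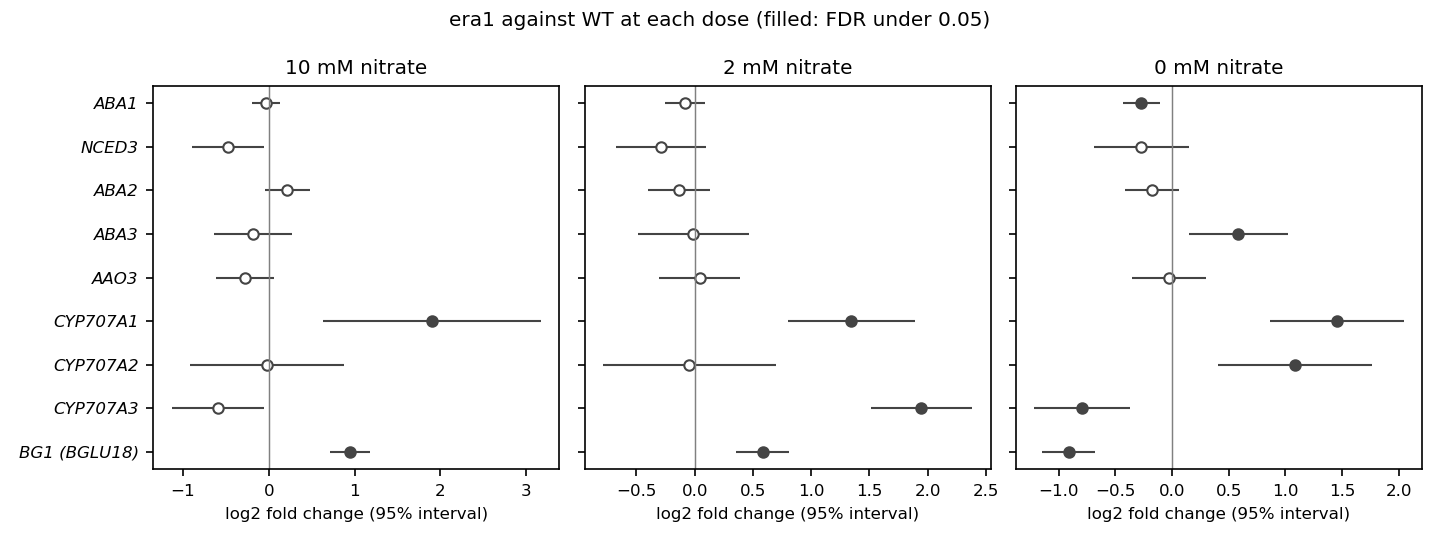
Log2 fold change of era1 against WT (x axis) for the 9 tested members at 10, 2 and 0 mM nitrate, with 95% intervals as bars; filled symbols passed an FDR of 0.05. CYP707A1 is above 0 at every dose, CYP707A3 is at 1.95 at 2 mM and -0.79 at 0 mM, and BG1 is at 0.95 at 10 mM and -0.91 at 0 mM.

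In the annotation BG1 directly neighbours TSA1 (AT1G52410), which encodes a component of the same endoplasmic reticulum bodies. TSA1 averaged 64.9, 72.1 and 74.6 CPM in WT at 10, 2 and 0 mM, and 123, 102 and 57.7 CPM in era1. It was higher in era1 by a log2 fold change of 0.92 at 10 mM (FDR = 2.89e-06) and 0.51 at 2 mM (FDR = 0.00324), and lower by -0.37 at 0 mM (FDR = 0.0158). Besides BG1, 9 tested genes were linked to these bodies, not all of them as components. Of these 9, 1 was higher and 0 lower in era1 at 10 mM, beside 15.4% and 14.3% of all genes. With 2 mM 2 were higher and 0 lower (10.9% and 11.1%), and without nitrate 0 were higher and 5 lower (24.5% and 24.6%). Among those 5, BGLU23, the related beta-glucosidase prominent in seedlings and roots, averaged 24.7 CPM in WT and 10.4 CPM in era1 at 0 mM. Within WT 1 of the 9 was higher and 3 lower at 0 against 10 mM, where BG1 rose (26.9% and 26.7% of all genes). The 3 were JAL22 at -1.71, PBP1 at -1.32 and NAI1 at -1.24 on the log2 scale. At 2 against 10 mM 2 were higher and 4 lower (28.8% and 28.3%). In era1 0 were higher and 6 lower at 0 against 10 mM, where BG1 fell (27.5% and 28.0%). Averaged over doses NAI1 was lower in era1 by -0.80 (FDR = 4.91e-04).

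Of 11 other matched genes of ABA metabolism 7 were tested. In WT 2 were higher and 2 lower at 0 against 10 mM, beside 26.9% and 26.7% of all genes. At 2 against 10 mM 1 was higher and 2 lower (28.8% and 28.3%). In era1 against WT 1 was higher and 2 lower at 10 mM (15.4% and 14.3%), and 1 higher and 1 lower at 2 mM (10.9% and 11.1%). Without nitrate 5 were higher and 2 lower, beside 24.5% and 24.6% of all genes. UGT71C5, which glucosylates ABA and thus works opposite to BG1, averaged 5.47, 19.7 and 11.4 CPM in WT at 10, 2 and 0 mM and 8.74, 26.6 and 19.7 CPM in era1. It rose in WT by 1.84 ± 0.20 on the log2 scale at 2 against 10 mM (FDR = 3.02e-08), and averaged over doses era1 was higher by 0.63 ± 0.11 (FDR = 2.80e-05).

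AAO1, an aldehyde oxidase related to AAO3, averaged 15.9, 16.9 and 16.9 CPM in WT and 12.03, 22.8 and 58.7 CPM in era1. The difference at 0 mM was 1.79 (log2, FDR = 2.46e-10), unlike AAO3, which was not called there at -0.02 (95% interval -0.35 to 0.30). AAO2, the third relative, averaged 24.9 CPM in WT and 39.9 CPM in era1 at 0 mM. CYP707A4, the remaining hydroxylase gene, averaged 4.74, 1.85 and 2.34 CPM in WT and 3.15, 2.15 and 4.91 CPM in era1. It fell in WT at 2 against 10 mM by 1.35 (log2, FDR = 0.00309), where CYP707A1 rose. ABA4, needed for neoxanthin, was lower in era1 averaged over doses by -0.25 ± 0.05 (FDR = 2.00e-04), and BGLU33, a vacuolar hydrolase of the glucose ester, by -0.42 ± 0.08 (FDR = 6.11e-05). NCED2, NCED6 and NCED9 averaged at most 0.274 CPM in any group.

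Genes of the carotenoid pathway, the lutein branch and the xanthophyll cycle included, were mostly lower in era1 without nitrate. Of 13 tested genes 12 were lower than in WT and 0 higher, beside 24.6% of all genes lower and 24.5% higher. Their median log2 fold change was -0.70 against 0.02 over all genes. With 10 mM nitrate 5 were lower and 0 higher (14.3% and 15.4% of all genes), and with 2 mM 2 were lower and 1 higher (11.1% and 10.9%). The rosette leaf markers were low in the same era1 libraries, and their part was not tested. PSY, phytoene synthase, averaged 130 CPM in WT and 74.9 CPM in era1 at 0 mM, and it rose in WT at 0 against 10 mM by 1.46 ± 0.13 (FDR = 1.29e-09). BCH2, a carotene hydroxylase that supplies zeaxanthin to ABA1, averaged 48.5, 6.60 and 62.0 CPM in WT and 34.9, 5.85 and 28.4 CPM in era1. Its low at 2 mM, -2.87 ± 0.16 in WT (FDR = 1.50e-13), lay in the same libraries as the low of ABA1. NPQ1, which returns violaxanthin to zeaxanthin against the direction of ABA1, rose there by 1.81 ± 0.12 (FDR = 1.88e-12).

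Genes that ABA is known to induce were also counted, and the part of ABA in their levels was not tested. In WT 5 of 19 tested were higher and 7 lower at 2 against 10 mM, beside 28.8% and 28.3% of all genes. Of 19 tested, 11 were higher and 0 lower in era1 with 10 mM nitrate, where 15.4% of all genes were higher and 14.3% lower. With 2 mM 10 were higher and 0 lower (10.9% and 11.1% of all genes). Without nitrate 5 were higher and 11 lower (24.5% and 24.6%). The interaction with 0 against 10 mM called 12 of 19 lower and 0 higher (19.3% and 15.6%). RD20, a caleosin, averaged 161, 48.4 and 392 CPM in WT and 375, 89.6 and 292 CPM in era1. HAI1, a phosphatase that restrains ABA signalling, averaged 9.87, 1.71 and 16.0 CPM in WT and 34.7, 6.74 and 13.4 CPM in era1. Averaged over doses 9 of the 19 were higher and 3 lower in era1, beside 23.8% and 23.3% of all genes. HAI2 was higher by 1.32 ± 0.14 in that average (FDR = 1.81e-08). KIN2, named after its values were seen, averaged 1347, 2052 and 1223 CPM in WT and 1243, 1908 and 721 CPM in era1. ABA itself was not measured.

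Of 8 tested jasmonate and wound genes, 5 were higher and 0 lower in era1 at 10 mM, beside 15.4% and 14.3% of all genes. With 2 mM 6 were higher and 0 lower (10.9% and 11.1%), and without nitrate 0 were higher and 3 lower (24.5% and 24.6%). Some had their highest group mean in era1 at 2 mM, as CYP707A3 did, and others in era1 at 10 mM. LOX3, a lipoxygenase of jasmonate synthesis, averaged 15.6, 12.8 and 18.9 CPM in WT and 21.0, 58.8 and 20.2 CPM in era1. JAZ1, a jasmonate signalling repressor, averaged 52.4, 93.7 and 58.6 CPM in WT and 73.2, 243 and 57.0 CPM in era1. LOX2, the plastid lipoxygenase, averaged 155, 480 and 372 CPM in WT and 479, 622 and 192 CPM in era1, the same ordering of genotypes at each dose as BG1. The storage protein gene VSP1 averaged 7.08, 10.2 and 13.7 CPM in WT and 22.0, 18.9 and 3.77 CPM in era1, and VSP2, named after its values were seen, 45.5, 61.9 and 32.5 CPM and 111, 82.5 and 22.8 CPM. The part of wounding or handling in these results was not tested.

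Genes with the most similar pattern over the 18 libraries were ranked by Pearson correlation of log2 CPM among 6962 or 6963 genes with a symbol and a mean of at least 5 CPM. The libraries share groups of 3 and the same dose and genotype shifts, so the coefficients are descriptions. For CYP707A3 the nearest were BCS1 (r = 0.970), encoding an AAA-type ATPase, the ethylene synthesis gene ACS6 (0.960) and the chitin receptor gene LYK5 (0.944). ACS6 averaged 28.0, 30.2 and 58.8 CPM in WT and 21.3, 74.4 and 33.1 CPM in era1. For CYP707A1 they were RAP2.2 (0.973), an ethylene response factor, IP5PII (0.967), an inositol polyphosphate phosphatase, and PYD2 (0.960), of pyrimidine breakdown.

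For BG1 the nearest were the ABA-induced NAC factor gene RD26 (r = 0.949), the annexin gene ANNAT1 (0.923) and the myrosinase-binding protein gene MBP1 (0.914). RD26 averaged 42.8, 66.1 and 62.2 CPM in WT and 83.4, 94.5 and 25.3 CPM in era1. For NCED3 the coefficients were lower, 0.801 for the chaperone gene J20, 0.800 for the floral repressor TEM1 and 0.797 for PP2-A13.

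**Figure D5:**
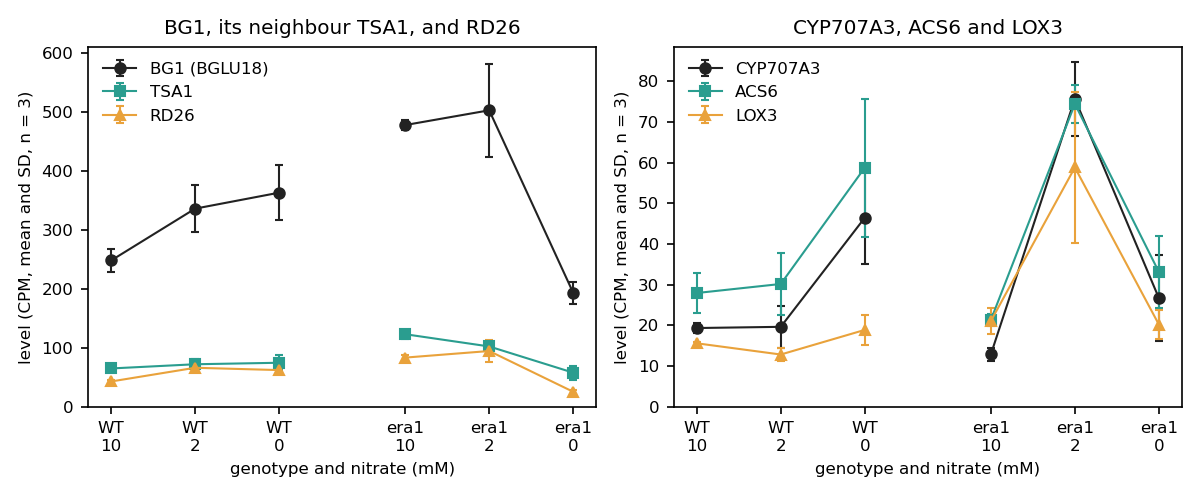
Mean level in CPM (y axis, linear; bars are SD, n = 3) by genotype and nitrate dose (x axis) of BG1, its neighbour TSA1 and RD26 (left) and of CYP707A3, ACS6 and LOX3 (right). In era1 the left genes are lowest at 0 mM, and the right genes are highest at 2 mM.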

How the data were processed

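Rosette RNA of 18 samples was made into polyA-selected, stranded, single-end QuantSeq 3′ libraries, as stated per the labels' protocols. Alignment with TopHat2 on TAIR10 is listed per the submitters' processing notes. Versions, annotation and strand setting are likewise not given in the sources used. The deposited values are raw read counts, 1 per gene and library, for 32744 genes plus 5 summary counters. The counters took 5.84% to 11.0% of records and were left out. Titles gave genotype, dose and replicate. The series text calls the replicates biological, but no label ties them to separate plants, so p-values measure the spread between these libraries, which may be technical. Within groups, libraries differed beyond counting noise (chi-square per degree of freedom 1.50 to 4.44).

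Counts were fitted in R 4.3.3 using edgeR 4.0.16 and its quasi-likelihood test. Scaling was by TMM, and filterByExpr (minimum count 10, minimum total 15) left 18358 genes. The model held 6 groups over 18 libraries, with 13 contrasts and Benjamini-Hochberg adjustment over all tested genes in each, at a threshold of 0.05. The contrast of genotype with 0 against 2 mM was added after values were seen. The SE is the absolute log2 fold change over the square root of F, and 95% intervals use t with 12 degrees of freedom. The code was tested on simulated data. Figures used matplotlib 3.10.9.

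Members and gene lists were chosen with earlier results of these data known. All members were named. Of each other list, up to 2 highest and 2 lowest called genes at a mean of at least 5 CPM were taken in WT at 0 and 2 against 10 mM and in era1 against WT averaged over doses. Only some of the genes that this rule gave are printed. CCA1, LHY, TOC1, PRR5 and ERA1 were always named. For 4 members the 3 genes of most similar pattern were also taken. CYP707A4, NCED2, NCED6, NCED9 and several markers lie outside the rule and were named after their values were seen. Symbols, neighbours and overlaps came from a RefSeq table of TAIR10.1, used for no coordinates. Alternatives were other scaling (DESeq2 1.42.0 size factors, upper quartile), other filters (none, or at least 1 CPM in 3 libraries), DESeq2, a replicate block, fits of only the groups compared, and each library left out.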

Additional observations from a re-analysis of the deposited data

Results flagged for a closer look

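The response to nitrate differed between era1 and WT for 3 members, by tests of the difference itself (the interaction of genotype and dose in edgeR). For BG1 the log2 interaction was -1.86 (FDR = 1.51e-09) for 0 against 10 mM and -1.49 (FDR = 7.60e-08) for 0 against 2 mM, since it fell in era1 without nitrate and did not in WT. For CYP707A3 it was 2.54 (FDR = 4.78e-06) for 2 against 10 mM and -2.74 (FDR = 1.01e-07) for 0 against 2 mM, since it peaked at 2 mM in era1 and at 0 mM in WT. For ABA3 it was 0.76 (FDR = 0.0433) for 0 against 10 mM, and that call was lost in DESeq2 (adjusted p = 0.149) and when any of 10 libraries was left out singly.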

How the results depend on the processing

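Of 117 member log2 fold changes, 48 were called, and none of these changed sign under any alternative run. Counts of called members moved by over 1.5 times in 4 contrasts. For era1 at 0 against 2 mM, DESeq2 called 4 in place of 7, and leaving out single libraries gave 4 to 6. For era1 against WT at 10 mM, 4 were called with no low-count filter and 1 with DESeq2, in place of 2, and 1 to 2 with a library left out. The fit of only the groups compared called 3 of 8 tested members there, BG1, NCED3 (FDR = 0.0190) and CYP707A3 (FDR = 0.00307), CYP707A1 having failed its low-count filter. For the interaction with 0 against 10 mM, DESeq2 and the fit of only the groups compared each called 1 in place of 2 (1 to 2 with a library left out). For the interaction with 2 against 10 mM, 2 were called with no filter in place of 1 (1 to 2), adding BG1 (FDR = 0.0424). Without the 2 mM libraries, chosen after seeing the data, the average of era1 against WT for CYP707A3 turned from 0.19, not called, to -0.69, since the 2 mM difference has the opposite sign. Counts over all genes stayed within 1.5 times. The average contrast uses all groups, so a fit of only the groups compared gave nothing more. Few counts limit CYP707A1 at 10 mM and NCED5 everywhere.

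Replicate numbers did not pair the samples: over 45 same-numbered pairs of groups the correlation of deviations ran from -0.10 to 0.14, and 5 of 18 libraries were closest to their own number. With the replicate block, 4 members were called in era1 against WT at 10 mM in place of 2, adding NCED3 (FDR = 0.0470) and CYP707A3 (FDR = 0.0144). The other contrasts moved by less than 1.5 times.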

Other observations

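Genes that carry ABA across membranes, 4 of 6 tested, were a further group. DTX50, an exporter of ABA from cells, averaged 10.85, 4.98 and 7.81 CPM in WT at 10, 2 and 0 mM and 5.03, 31.5 and 1.56 CPM in era1. Against WT it was lower in era1 at 10 mM by a log2 fold change of -1.10 (FDR = 0.00454), higher with 2 mM by 2.64 (FDR = 2.56e-08) and lower without nitrate by -2.33 (FDR = 1.22e-05), the same order of signs as the values of CYP707A3. ABCG25, an exporter of vascular tissue, averaged 6.06, 7.41 and 13.8 CPM in WT and 9.98, 9.42 and 21.5 CPM in era1, and averaged over doses it was higher in era1 by 0.57 ± 0.11 (FDR = 1.72e-04). NPF4.6, an importer named after its values were seen, averaged 81.0 to 118 CPM over the groups and was called in no contrast of era1 with WT.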
